A study of Mus musculus with 3 samples.

Results

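The SOCS family genes Socs3, Socs1, Cish and Socs2 were examined in chromatin immunoprecipitation sequencing (ChIP-seq) data of mouse Th17-polarised T cells. The 4 genes were chosen by name, and each was read in a fixed stretch of build mm9: Socs3 on chromosome 11 from 117805000 to 117850000, Socs1 on chromosome 16 from 10765000 to 10805000, Cish on chromosome 9 from 107180000 to 107220000, and Socs2 on chromosome 10 from 94850000 to 94900000. These windows held 9 of the 10971 regions of the genome marked by H3K4me3, a histone modification of active promoters, and 16 of the 27061 phospho-STAT3 sites. The cells were naive CD4 T cells, activated for 72 h through CD3 and CD28 with IL-6 (10 ng/ml) plus TGF-b (2.5 ng/ml) while antibodies blocked IL-2, IL-4 and IFN-g, and then given the same dose of IL-6 once more for 1 h. STAT3-deficient cells carried Stat3fl/fl, FoxP3-GFP and CD4-Cre, a recombinase driven in T cells by the Cd4 promoter. Wild-type cells carried Stat3fl/fl and FoxP3-GFP without Cre. There was 1 library each of STAT3-deficient H3K4me3, wild-type H3K4me3 and wild-type phospho-STAT3, the last made with an antibody to STAT3 phosphorylated on serine; an input library and a phospho-STAT3 library of STAT3-deficient cells were not analysed here.

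Cytokine receptors of this class activate JAK kinases, which phosphorylate STAT proteins. STAT dimers then enter the nucleus, bind DNA and raise the transcription of many genes, among them those of the SOCS family. SOCS proteins close the loop: their SH2 domain docks on phosphotyrosine, and their SOCS box recruits a ubiquitin ligase. Socs3 binds the shared IL-6 receptor chain gp130 and blocks JAK activity there, and it is a textbook target of STAT3. Socs1 blocks JAK kinases downstream of interferons and other cytokines. Cish and Socs2 are known mainly as targets of STAT5, and their products dampen signals of IL-2 (Cish) and growth hormone (Socs2).

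The libraries held 12075963 reads (STAT3-deficient H3K4me3), 12281399 reads (wild-type H3K4me3) and 10127075 reads (wild-type phospho-STAT3). With 1 library per group there was no test between genotypes: ratios carry exact (Clopper-Pearson) 95% intervals that cover counting error only and leave out variation between cultures and preparations. Reads in called regions made up 8.84% of the STAT3-deficient and 7.14% of the wild-type H3K4me3 library. Ratios of STAT3-deficient over wild-type reads were therefore scaled so that the median log2 ratio of marked regions (at least 50 reads in both libraries together) was 0; by library totals every log2 ratio is 0.32 higher, and both are given where it matters. The genotype label was not checked at a position set in advance. A search for intervals with 0 STAT3-deficient reads gave, on chromosome 11, the interval from 100753872 to 100757528. It held 28 reads in the wild-type H3K4me3 library and 73 in the phospho-STAT3 library. Its 0 STAT3-deficient reads are the rule that picked it, so they do not check the label. This interval ranked first among such empty intervals by the smaller of both wild-type counts, but not by a wide margin. The next 2 in rank, on other chromosomes, each held 24 wild-type H3K4me3 and 23 phospho-STAT3 reads. The gene table of GRCm38.p6 puts Stat3 on chromosome 11, but gene starts were not placed on mm9 here. For that reason neither the T cell identity nor other genes of the pathway were checked at their starts. The region of each gene is the marked region nearest the centre of its window.

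STAT dimers bind the palindrome TTCNNNGAA. RefSeq promoters (GRCm38.p6) of 3 of the 4 genes were at hand, and they are shown because phospho-STAT3 sites lay at or near all 3 H3K4me3 regions. Each sequence runs from 250 bases before the annotated start to 30 bases after it, with TTCNNNGAA in capitals. The search covered both strands, which the palindrome makes equal, and the full stretch up to 50 bases after the start, and a variant with 1 more base between the half-sites was searched likewise.
Socs3 (chr11:117969337-117969616, minus strand): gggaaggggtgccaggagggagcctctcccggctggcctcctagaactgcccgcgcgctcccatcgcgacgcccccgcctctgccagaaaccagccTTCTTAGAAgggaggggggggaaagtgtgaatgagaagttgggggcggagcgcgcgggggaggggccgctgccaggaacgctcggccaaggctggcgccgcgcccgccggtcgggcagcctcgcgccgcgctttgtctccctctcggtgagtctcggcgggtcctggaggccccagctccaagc
Cish (chr9:107296409-107296688, plus strand): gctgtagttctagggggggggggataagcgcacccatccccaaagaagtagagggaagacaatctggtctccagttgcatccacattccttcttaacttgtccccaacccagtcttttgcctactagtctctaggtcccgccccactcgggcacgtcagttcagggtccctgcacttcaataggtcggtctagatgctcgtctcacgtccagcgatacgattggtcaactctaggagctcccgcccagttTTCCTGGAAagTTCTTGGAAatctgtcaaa
Socs1 (chr16:10785507-10785786, minus strand): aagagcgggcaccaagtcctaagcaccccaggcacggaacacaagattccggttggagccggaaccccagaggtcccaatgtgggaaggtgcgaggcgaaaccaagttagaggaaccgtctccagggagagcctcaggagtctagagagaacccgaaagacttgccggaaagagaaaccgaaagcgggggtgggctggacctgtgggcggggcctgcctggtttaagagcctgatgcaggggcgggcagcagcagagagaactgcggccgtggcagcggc

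The Socs3 promoter held 1 match, TTCTTAGAA, which ended 146 bases before the start. The Cish promoter held 2 matches close together, TTCCTGGAA and TTCTTGGAA, at bases 1 to 9 and 12 to 20 from the start. The Socs1 promoter held none in these letters, and the longer variant was found in none of the 3. Of 32851 RefSeq promoters of this length, 8.30% held TTCNNNGAA at least once, 0.457% held it at least 2 times, and 6.95% held the longer variant. The Socs3 promoter was also the richest of the 3 in G and C, at 71.6% of the 250 bases before the start, against 61.2% in Socs1 and 55.2% in Cish. A match is a string of letters and not a measured site, and these sequences are of another build than the reads, so they were not laid over the reads.

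H3K4me3 at Socs3 was lower in the STAT3-deficient library, while the other 3 genes of the family did not share this. The Socs3 region, from 117827800 to 117831399, held 79 STAT3-deficient and 181 wild-type reads, 2.81-fold lower (log2 ratio -1.49, interval -1.89 to -1.10). By library totals it was 2.25-fold lower (log2 ratio -1.17, interval -1.57 to -0.78). It passed the size rule used for all regions, at least 2-fold with an interval excluding no change, under both scalings. Of the marked regions, 1.16% passed this rule as lower with the first scaling and 0.492% by library totals. Among the 1383 other marked regions with at least as many reads as Socs3, 1 had a log2 ratio as low. Of marked regions of any depth, 38 had a lower one. Ranked likewise, ratios as high as that of Cish were found in 4 of 23 regions. For Socs2 they were found in 154 of 7848.

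**Figure D1:**
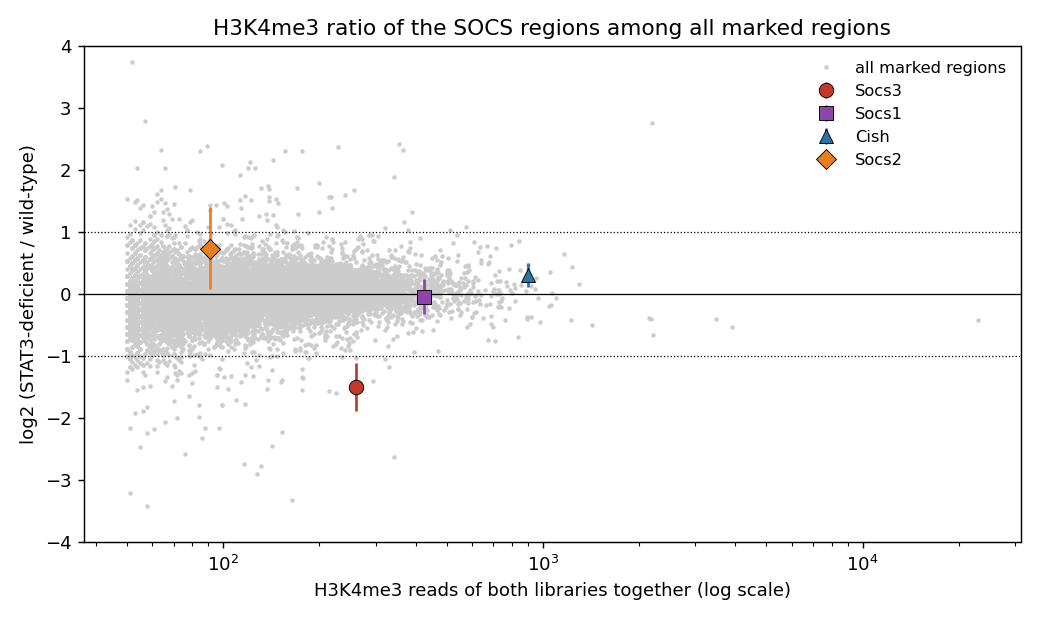
H3K4me3 reads of both libraries together (x axis, log scale) against the log2 ratio of STAT3-deficient over wild-type reads scaled by marked regions (y axis). Grey points are all 10971 marked regions, coloured symbols the 4 SOCS regions with 95% counting intervals, and dotted lines mark 2-fold; Socs3, at -1.49, lies below the bulk of regions of like depth, and Socs1, Cish and Socs2 lie within or near it.

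The Cish region was higher and the Socs1 region about level in STAT3-deficient cells, and neither reached 2-fold. Cish, from 107198000 to 107203599, held 543 STAT3-deficient and 357 wild-type reads, a log2 ratio of 0.31 (0.11 to 0.51), or 0.63 (0.43 to 0.83) by library totals. It held at least as many reads as 99.8% of marked regions, but it was also at least as wide as 99.4% of them. Socs1, from 10782400 to 10786999, held 231 STAT3-deficient and 194 wild-type reads. Its log2 ratio of -0.04 (-0.33 to 0.24) turned to 0.28 (-0.01 to 0.56) by library totals, so at this depth no direction could be given. Socs2, from 94877200 to 94878799, was the weakest of the 4, with 61 STAT3-deficient and 30 wild-type reads and a log2 ratio of 0.73 (0.07 to 1.41). By library totals its ratio was 1.05 (0.40 to 1.73), which passed the size rule as higher, as 2.91% of marked regions did with that scaling and 1.01% with the first. With the scaling by marked regions, the intervals of Cish and Socs2 lay above 0, as those of 5.83% of marked regions did, and that of Socs3 lay below 0, as those of 5.69% did. In all, 1 of the 4 regions passed the rule as lower under both scalings, and 0 as higher with the first scaling or 1 by library totals.

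Differences between the genes do not depend on the scaling, since it cancels. The log2 ratio of Socs3 was 1.80 below that of Cish (difference -1.80, interval -2.25 to -1.36). It was also below that of Socs1 (-1.45, -1.94 to -0.96) and Socs2 (-2.21, -3.01 to -1.44). Socs1 lay below Cish by a margin close to the counting error (-0.35, -0.70 to -0.01) and below Socs2 (-0.77, -1.51 to -0.05). Cish and Socs2 were not distinguishable (-0.42, -1.13 to 0.27). These are exact intervals of the odds ratio of read counts, for 6 pairs and without adjustment for their number. The differences from Socs2 rest on the region read for it. The second marked region close by, from 94879600, had a log2 ratio of -0.23 (-0.88 to 0.43) scaled by marked regions. No pair was computed with that region.

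**Figure D2:**
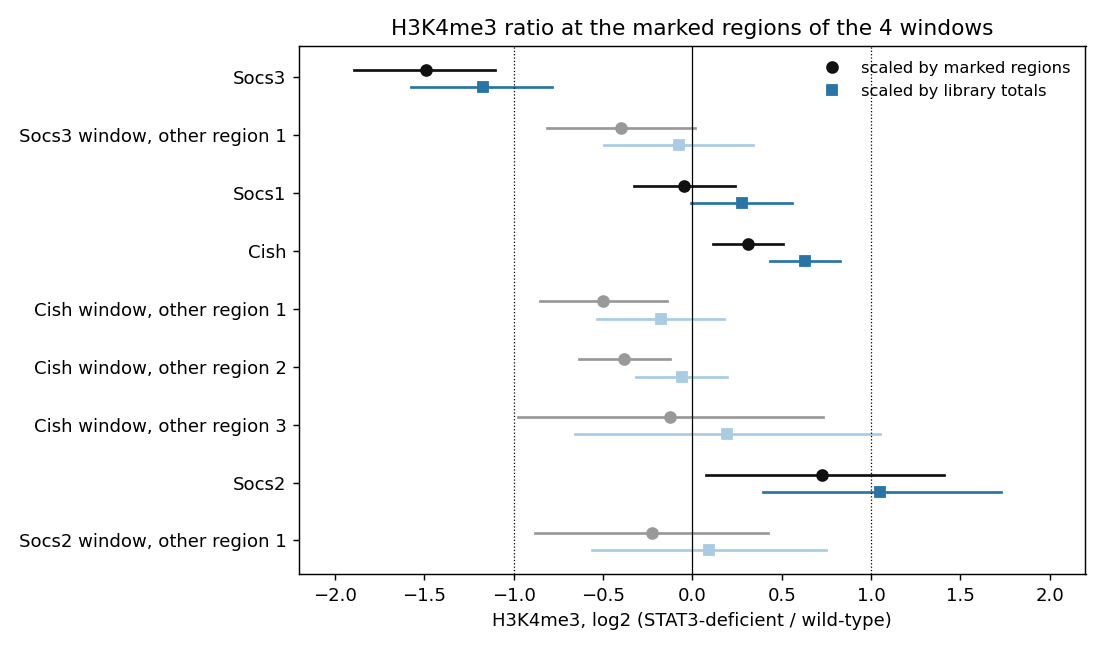
Log2 ratio of STAT3-deficient over wild-type H3K4me3 reads (x axis) at the 9 marked regions of the 4 windows (rows), with 95% counting intervals. Circles are scaled by marked regions and squares by library totals, the genes' own regions are in full colour and other regions pale, numbered from low to high coordinates; the Socs3 intervals lie below 0 under both scalings, and of the 5 other regions 2 lie below 0 when scaled by marked regions and none by library totals.

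None of the 5 other marked regions inside the same windows passed the size rule. Few regions did: scaled by marked regions, 1.16% of all marked regions passed as lower and 1.01% as higher. The log2 ratios of the 5 ran from -0.50 to -0.13, or from -0.18 to 0.19 by library totals. With the scaling by marked regions, 3 of the 5 intervals included 0 and 2 lay below it, both in the Cish window. Of all marked regions, 5.69% had an interval below 0 with that scaling. By library totals all 5 intervals included 0. In the Socs3 window the region from 117847800 to 117849999, on the side where the gene table lists Pgs1 (an enzyme of cardiolipin synthesis) as the next gene, held 96 STAT3-deficient and 103 wild-type reads. Socs3 lay below it by 1.09 log2 units (difference -1.09, -1.67 to -0.51). In the Cish window the regions from 107180000 to 107183399 and from 107187600 to 107192199 lie on the side where the table lists Mapkapk3, a protein kinase. They held 127 and 250 STAT3-deficient reads, against 146 and 265 wild-type reads, and are the 2 regions with intervals below 0, at -0.50 (-0.85 to -0.14) and -0.38 (-0.64 to -0.13). The Cish ratio exceeded theirs by 0.81 (0.40 to 1.21) and 0.69 (0.37 to 1.01). It was not distinguishable from that of the short region from 107208800 to 107209399, with 27 STAT3-deficient and 24 wild-type reads (difference 0.43, -0.45 to 1.31). Outside all called regions, the Socs3 window held 331 STAT3-deficient and 369 wild-type reads, a log2 ratio by library totals of -0.13 (-0.35 to 0.09), and the Cish window held 271 and 274 reads, a ratio of 0.01 (-0.24 to 0.26). The windows of Socs1 and Socs2 held 360 and 345 STAT3-deficient reads outside regions, against 323 and 316 wild-type reads, with ratios of 0.18 (-0.04 to 0.40) and 0.15 (-0.07 to 0.38).

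**Figure D3:**
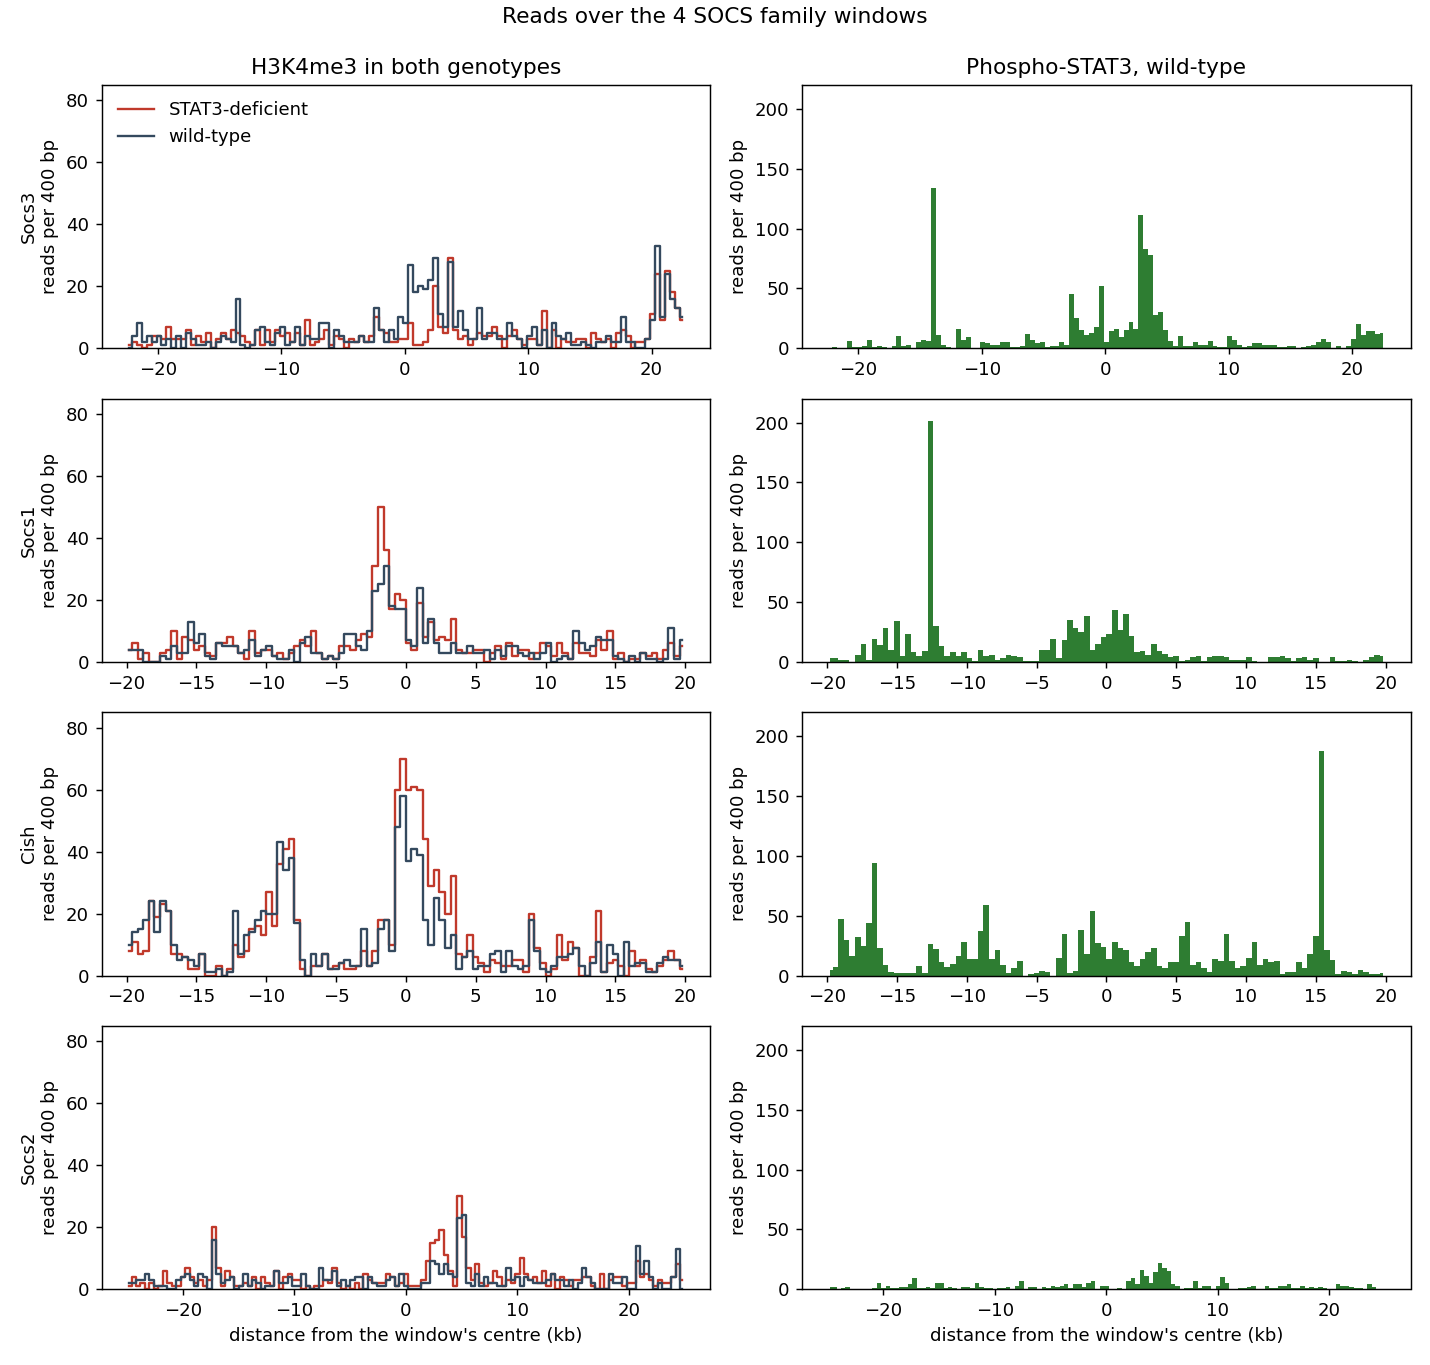
Reads per 400 bp (y axis) along the 4 windows (x axis, distance in kb from the window's centre), with H3K4me3 of STAT3-deficient (red) and wild-type (dark) cells on the left and wild-type phospho-STAT3 (green) on the right. STAT3-deficient H3K4me3 is lower over part of the Socs3 region and higher over part of the Cish region, and the tallest phospho-STAT3 peaks of the Socs1 and Cish windows stand away from the H3K4me3 of the genes.

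Within the Socs3 region the difference was uneven. In the 1 kb bin from 117828000 there were 7 STAT3-deficient reads against 50 wild-type reads, 8.77-fold lower (log2 ratio -3.13, -4.52 to -1.98). The bins from 117827000, 117829000 and 117830000 held 9, 21 and 19 STAT3-deficient reads, against 33, 52 and 36 wild-type reads, with log2 ratios of -2.17, -1.60 and -1.22. At the high-coordinate end, the bin from 117831000 held 37 STAT3-deficient and 43 wild-type reads, a ratio of -0.51 (-1.19 to 0.16) that includes no change. The tallest 200 bp window of the region lay there in both libraries, with 23 STAT3-deficient reads (from 117831050) and 25 wild-type reads (from 117831100). Called in the STAT3-deficient library alone, the region shrank to 400 bp at that end, from 117831000 to 117831399, where the log2 ratio was -0.32 (-1.12 to 0.49) and no longer passed the size rule. In the wild-type library alone it covered the same 3600 bp as in the pooled call. Over the 7 bins in and beside the region, 4 had an interval below 0 under both scalings and 0 an interval above 0. Here and for the other genes, the bins divide up the region and its flanks and are not separate observations. No share over all 1 kb bins of the genome is given beside these counts. RefSeq gives Socs3 on the minus strand of GRCm38.p6, where low coordinates are downstream of the start.

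At Cish the gain was also uneven, and its direction was the opposite. The bins from 107198000 and 107199000 held 39 and 137 STAT3-deficient reads, against 34 and 113 wild-type reads, with log2 ratios of -0.10 and -0.02. The bin from 107201000 held 103 STAT3-deficient and 45 wild-type reads, 1.86-fold higher (log2 ratio 0.90, 0.38 to 1.44), and that from 107203000 held 46 and 21, a ratio of 0.84 (0.06 to 1.65). The tallest window was at 107200900 in the STAT3-deficient library, with 45 reads, and at 107199300 in the wild-type library, with 32 reads. Of 8 bins, 2 had an interval above 0, or 4 by library totals, and 0 an interval below it. RefSeq gives Cish on the plus strand, where high coordinates are downstream.

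Socs1 and Socs2 showed less of a pattern along the region. At Socs1 the 7 bins all included no change, and the bin with the most reads, from 10783000, held 89 STAT3-deficient and 59 wild-type reads (log2 ratio 0.30, -0.19 to 0.80). By library totals 1 of these bins had an interval above 0. At Socs2 the bins from 94877000 and 94878000 held 35 and 34 STAT3-deficient reads, against 18 and 16 wild-type reads, and the bins from 94879000 and 94880000 held 33 and 26, against 29 and 26. All 5 Socs2 bins included no change, or 3 of them did so by library totals, the other 2 lying above it. The Socs2 region was called in the STAT3-deficient library alone (1600 bp) and not in the wild-type library alone, where its tallest window held 7 reads, against 17 in the STAT3-deficient library. A second marked region close by, from 94879600 to 94880199, held 43 STAT3-deficient and 41 wild-type reads. On that side the table lists Gm33230 and then the long non-coding RNA 5730420D15Rik. Which of the 2 regions covers the Socs2 start was not determined. Joined into 1 region from 94877200 to 94880199, a choice made after the values were seen, the 2 had a log2 ratio of 0.19 (-0.24 to 0.62), so the Socs2 value rests on which of them is read.

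**Figure D4:**
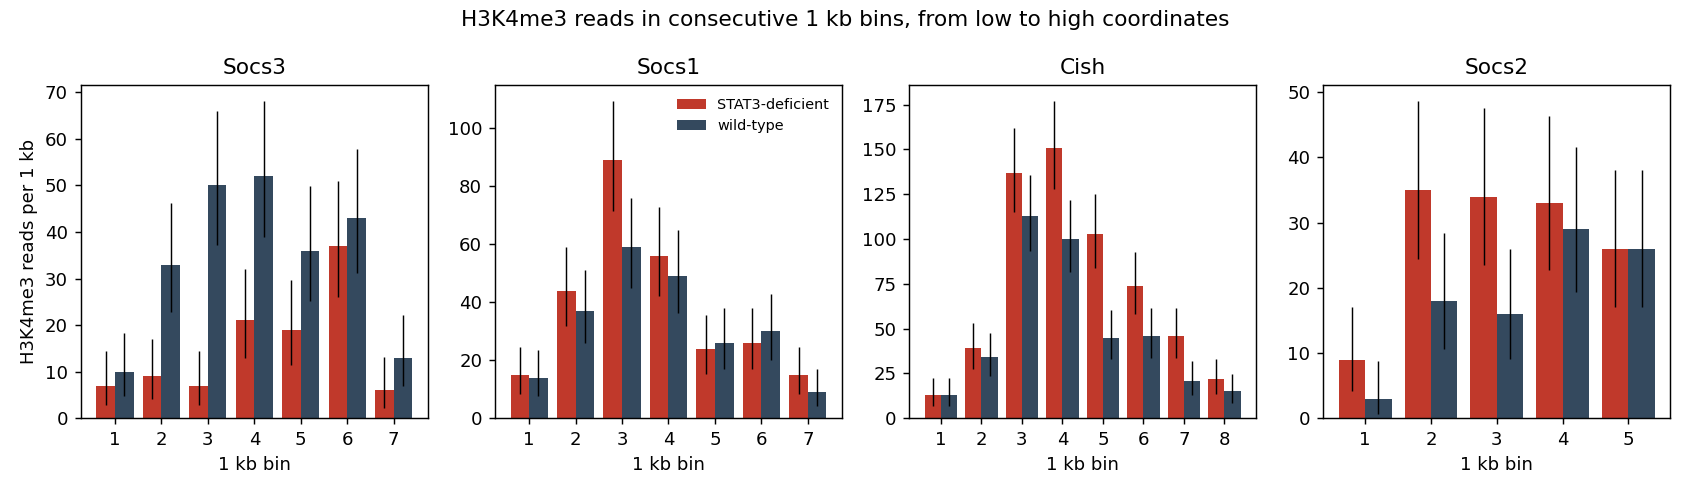
H3K4me3 reads (y axis, from 0, scales differ between panels) in consecutive 1 kb bins over and beside each gene's region, numbered from low to high coordinates, as counted and not scaled. Red bars are STAT3-deficient, dark bars wild-type, and error bars are exact 95% Poisson intervals; Socs3 bins 2 to 5 are lower in STAT3-deficient cells and bin 6 nearly level, while Cish bins 5 and 7 are higher.

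Phospho-STAT3 in wild-type cells was well above the genome's mean density in the Cish, Socs1 and Socs3 windows and less so in the Socs2 window. A site is a 200 bp window of 10 or more reads that exceeds both the genome's density and that of the surrounding 10 kb at a Poisson p below 1e-08. Its excess is its read count minus the larger expectation. The surrounding 10 kb include the site's own reads, which raise the local expectation. The Cish window held 9 sites, the Socs3 window 4, the Socs1 window 2 and the Socs2 window 1. At a p below 1e-12 these counts were 5, 3, 2 and 0. Each window was set against tiles of the whole genome of the same length. Of these, 0.00758% (5 of 65982) held at least as many sites as the Cish window and 2.11% as many as the Socs3 window. For the Socs1 and Socs2 windows the shares were 10.6% and 27.0%, and the median tile held 0 sites. Measured by the summed excess of their sites, 0.0136% of tiles reached the Cish window and 0.0852% the Socs3 window. The shares were 0.296% for Socs1 and 19.2% for Socs2. Poorly mappable tiles are included, and tiles were not matched to the windows for genes or H3K4me3 regions. Over the whole window, reads stood 8.80-fold (Cish), 5.49-fold (Socs1), 5.27-fold (Socs3) and 1.45-fold (Socs2) above the mean density of the library. Of the 16 sites, 12 were strong, that is in the top 25% of all sites by excess (at least 26.1 reads), and none of the 12 was in the Socs2 window.

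The Socs3 window held a pair of strong sites of like size, 1 inside and 1 outside the H3K4me3 region. The outer site, from 117813400 to 117813899, held 115 reads (52 on the plus and 63 on the minus strand), 24.9-fold over the local density, and ranked at place 117 of all 27061 sites. It lay 13.9 kb from the region, towards lower coordinates, where H3K4me3 within 1 kb was 23 reads in STAT3-deficient and 25 in wild-type cells. The inner site, from 117830350 to 117830949, held 112 reads (57 plus, 55 minus), at place 166. It stood 9.76-fold over a local density raised by its own reads and its neighbours. In the 200 bp of its peak there was 1 STAT3-deficient H3K4me3 read and 0 wild-type ones, so the peak fell in a dip of the mark between bins that carried it. The next site, from 117831100 to 117831499, held 48 reads and overlapped sites called in both H3K4me3 libraries, beside the tallest H3K4me3 windows. In the 200 bp of its own peak there were 4 STAT3-deficient and 3 wild-type H3K4me3 reads, so its peak was not that of the mark. The fourth, from 117824750 to 117825149, with 31 reads, fell short of strong.

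The site with the largest excess of all 4 windows lay near Socs1. From 10772200 to 10772749 it held 152 reads, 76 on each strand, 16.4-fold over the local density, at place 45. It was 9.65 kb from the Socs1 region, towards lower coordinates and outside any marked region, with 28 STAT3-deficient and 23 wild-type H3K4me3 reads within 1 kb. The other Socs1 site, from 10786400 to 10786699, lay inside the H3K4me3 region with 44 reads, 5.28-fold, at place 3119.

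In the Cish window the largest site was likewise away from the gene's own H3K4me3. From 107215000 to 107215649 it held 133 reads (69 plus, 64 minus), 16.7-fold, at place 68, and it lay 11.4 kb from the Cish region, towards higher coordinates. The 2 next by excess lay inside the regions on the Mapkapk3 side, from 107182900 to 107183499 with 80 reads (place 471) and from 107191000 to 107191549 with 46 reads (place 2380). A site of almost the same excess and 47 reads (place 2436), from 107205400 to 107205799, lay outside marked regions, 1.80 kb from the Cish region towards higher coordinates. The Cish region itself held 2 smaller sites of 34 and 35 reads, at its low-coordinate end. The single Socs2 site, from 94879900 to 94880149, held 21 reads, 7.14-fold over the local density and at place 14559. It lay in the second marked region of that window, and both H3K4me3 libraries, with 18 reads each in the same 200 bp, were called there too.

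**Figure D5:**
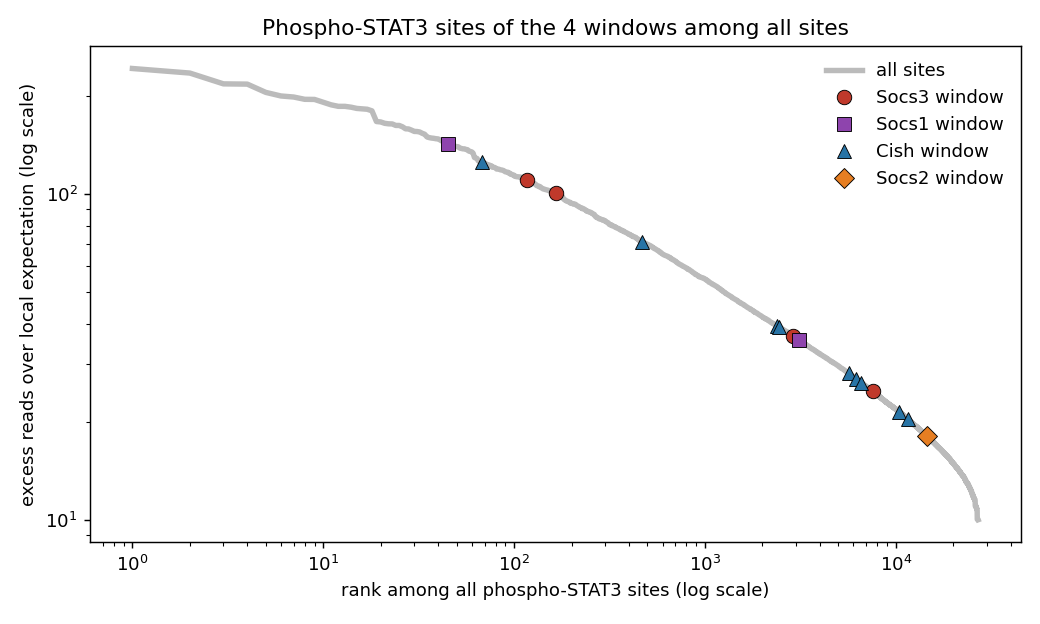
Rank of every phospho-STAT3 site (x axis, log scale) against its excess of reads over the local expectation (y axis, log scale), with all 27061 sites in grey. Coloured symbols are the 16 sites of the 4 windows: the largest of the Socs1, Cish and Socs3 windows rank at places 45, 68 and 117, and the Socs2 site at place 14559.

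Seen from the H3K4me3 regions, 3 of the 4 genes' regions (Socs3, Socs1 and Cish) overlapped a site, and in all 3 at least 1 was strong. The Socs2 site, which was not strong, lay in the other marked region of its window. Which region covers the Socs2 start was not determined, so the count of genes with a site depends on the region read. Of all marked regions 52.5% overlapped a site and 13.3% a strong one. The Socs3, Socs1 and Cish regions are also wide, wider than or as wide as 97.5%, 98.8% and 99.4% of marked regions, and width was not adjusted for. Of the 16 sites, 9 lay inside marked regions (24.4% of all sites did) and 3 were also called in both H3K4me3 libraries (12.9% of all sites were). The 3 were the Socs3 site from 117831100, the Cish window site from 107191000 and the Socs2 site. Reads on the minus strand lay downstream of those on the plus strand by a median of 90.5 bp across the 16 sites (60.5 to 125.5), with reads on both strands at each.

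The size of the H3K4me3 difference around the sites depended on the scaling, and intervals that include 0 do not show equal H3K4me3. Within 1 kb of the 16 sites, the log2 ratio of H3K4me3 by library totals ran from -0.71 to 0.31, and the interval included 0 at all 16. With the scaling by marked regions it ran from -1.03 to -0.01, and 4 of the 16 intervals lay below 0, against 7.03% over all sites (1.95% by library totals). These were the intervals of the 2 sites in the Socs3 region, with 69 and 49 STAT3-deficient against 92 and 64 wild-type reads, and those of the Cish window sites from 107180950 (58 against 81) and from 107215000 (18 against 30). The stretches around the 2 Socs3 sites overlap each other and the Socs3 region, so they share reads and are not separate observations. Socs1 and Socs3 both had strong sites inside and outside the H3K4me3 region, but the sites were not of like size. The largest inside site held 112 reads at Socs3 (place 166) and 44 at Socs1 (place 3119). The H3K4me3 ratios of the 2 genes differed by 1.45 log2 units, and a link between sites and ratios was not tested.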

How the data were processed

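ChIP-seq reads of 3 libraries, 1 per group, were analysed. The deposited files list aligned reads, 1 line each; per the submitters' processing notes the build was mm9 and SICER was used, and the aligner is not given in the sources used here. The deposited score column is 0 on every line and was not used. All reads span 25 bp, and 0 reads shared a position and strand. Reads were moved 75 bp towards the fragment centre. For H3K4me3 regions, the 2 libraries were pooled, 200 bp windows of 12 or more reads were kept (a Poisson p of 1e-05, with 0.8 of the genome taken as mappable), and windows up to 600 bp apart were joined, with a minimum of 2 windows. Regions and sites, coordinates 1-based as the files give them, were counted genome-wide without the mitochondrial chromosome. The scan for sites moved a 200 bp window in steps of 50 bp, with reads on both strands. The size rule and the site scan were tested on simulated data, with Poisson counts for regions and a uniform background for sites. Variation between libraries, open chromatin and uneven mappability were not simulated. The members and lists were chosen with earlier results of these data known, and the 1 kb bins, pairs and tiles after the values were seen. Up to 3 sites per window are named by rule, the largest by excess, and others are named where a count turns on them. Whether the samples were separate cultures or pooled animals is not stated. Preset lists of marker and pathway genes were not run, since no mm9 annotation was used. Reads carry no molecular identifiers. Python 3.11.15, numpy 2.4.6, scipy 1.17.1, pandas 2.3.3 and matplotlib 3.10.9 were used.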

Additional observations from a re-analysis of the deposited data

How the results depend on the processing

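Alternatives were other scalings, background subtraction, regions called on 1 library, whole windows, no read shift and other joining of windows; scaling by the rest of the window and joining within 1000 bp were chosen after seeing the data. No paired analysis was possible because each group had 1 library. Socs3 stayed below 0 under all 9, at -0.32 for the 400 bp called from STAT3-deficient reads alone, -0.66 for the whole window, -1.04 scaled by the rest of the window and -1.05 without read shift. It no longer passed the size rule in the whole window or in that 400 bp region. Cish moved to 0.63 by library totals, 0.62 by the rest of the window and -0.10 over the whole window, which adds its neighbours and background. Socs1 moved to 0.28 by library totals. Socs2 moved to -0.077 over the whole window, and to -0.43 (wild-type library alone) and -0.24 (windows joined within 200 bp) because the nearest marked region was then the second one. Cish sites fell to 5 at p under 1e-12. The Socs2 site was lost (0) at p under 1e-12, with a 5 kb local density, and without sites called in both H3K4me3 libraries. Of all marked regions 238 passed the size rule (111 higher, 127 lower), 373 by library totals (319 higher, 54 lower), 94 with at least 100 reads and 571 without a read minimum. Depth limits Socs2 most: its 91 reads give an interval from 0.07 to 1.41.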

Other observations

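The match code in each read, which no comparison used, gave the share of reads that differ from the reference. In the Socs3 window these were 3.36% of STAT3-deficient H3K4me3, 4.43% of wild-type H3K4me3 and 5.19% of phospho-STAT3 reads. In the same order they were 4.22%, 4.64% and 4.93% in the Socs1 window, 3.53%, 3.47% and 3.56% in the Cish window, and 5.97%, 2.98% and 4.58% in the Socs2 window (28 of 469, 12 of 403 and 16 of 349 reads there). Over the whole libraries they were 3.97%, 3.90% and 4.58%.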
